A study of Mus musculus with 6 samples.

Results

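The genes described here are 33 regulators of apoptosis and necroptosis. They were taken by symbol from a table of 40481 genes, counting each gene identifier once, and 32 of the 33 passed the filter on low counts with which 14778 genes were tested. By their textbook roles 11 restrain cell death and 22 promote it or carry it out, and the comparison of interest is between these survival and death genes. The split is a simplification: *Casp8*, counted as a death gene, also restrains necroptosis. The RNA came from unstimulated bone marrow-derived macrophages (BMDMs), which were differentiated and kept in CMG-conditioned medium, a source of macrophage colony-stimulating factor. There were 3 libraries from wild-type mice and 3 from mice in which *Scd2*, encoding a stearoyl-CoA desaturase, was floxed and deleted by lysozyme M-Cre (*Scd2*-m/-m, labelled Scd2-KO). Lysozyme M-Cre acts in cells of the myelomonocytic lineage and in any one cell may act late or not at all, so a culture may keep undeleted cells. Mice of both sexes aged 2 to 5 months were used in the study. The sources used here do not say whether the wild-type mice carried the floxed allele or Cre, nor which libraries came from separate mice, so the tests measure the spread between libraries, which may be technical.

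Apoptosis through mitochondria is set by the BCL2 family. Prosurvival members (BCL2, BCL-xL, BCL-w, MCL1, A1) hold in check the pore formers BAX and BAK, and BH3-only proteins such as BIM, PUMA, NOXA and BMF bind and neutralise the prosurvival members. Once the outer mitochondrial membrane is open, cytochrome c assembles APAF1 and caspase 9, and inhibitor of apoptosis proteins (IAPs) act against this step and on death receptor complexes. Death receptors work through FADD, caspase 8 and its partner cFLIP. Where caspase 8 is not active, RIPK1 and RIPK3 can drive necroptosis by phosphorylating MLKL, which breaks the plasma membrane. Macrophages depend on colony-stimulating factor for survival and can die in either way. Much of this control lies in protein binding and cleavage, which transcript counts do not measure.

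Library totals ran from 46285176 to 57629638 counts. *Scd2* (chr19:44293674-44306864, GRCm38) was at 66.9, 77.8 and 62.7 CPM (counts divided by the scaled library size) in wild-type BMDMs and at 59.5, 38.0 and 39.8 in *Scd2*-m/-m BMDMs. All *Scd2*-m/-m libraries were below all wild-type libraries, but the difference missed the threshold (log2 fold change -0.59, SE 0.19, edgeR false discovery rate, FDR, 0.1002), and the library labelled *Scd2*-m/-m replicate 1 lay nearest to wild type. Without that library the FDR was 8.87e-05. By qPCR, a different measure, the study itself reported far less *Scd2* transcript in *Scd2*-m/-m than in wild-type macrophages. The counts were made over the whole gene, and which exons were floxed was not analysed here. The 15 macrophage markers summed to 53753 to 56460 CPM in wild-type against 39691 to 40232 CPM in *Scd2*-m/-m libraries. They include *Lyz2*, the lysozyme M gene for which the Cre is named, so this sum is not a measure of macrophage content alone. For comparison, 15 stromal and endothelial markers summed to 14.9 to 18.6 against 17.4 to 19.3 CPM. Of the macrophage markers, *Adgre1*, encoding F4/80, was at 2805, 3418 and 3735 CPM in wild-type against 2169, 2341 and 2580 in *Scd2*-m/-m BMDMs. Most low counts were even numbers (60.9 to 64.9% of counts from 1 to 20), the totals were larger than the reads per sample stated for the study, and no source used here says what 1 count stands for; with the counts halved, 8 regulators again passed the threshold.

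Of the 32 regulators tested, 8 (25%) differed between genotypes at an FDR below 0.05, 6 of them higher in *Scd2*-m/-m BMDMs and 2 lower. Over all genes tested 17.5% passed, 9.65% higher and 7.84% lower. Among the survival genes *Mcl1* and *Bcl2l1* rose and *Birc3* fell. Among the death genes *Ripk3*, *Mlkl*, *Pmaip1* and *Casp12* rose and *Bmf* fell. The fold changes were small: the median absolute log2 fold change was 0.115 over the regulators and 0.164 over all genes, and no regulator passed the fold threshold that the study set for its lists (absolute log2 fold change above 2), which 0.663% of all genes passed together with the FDR. The libraries of the genotypes did not overlap for 14 regulators (9 higher, 5 lower), against 34.9% of all genes (17.9% higher, 17% lower). *Casp12* entered the test through the *Scd2*-m/-m libraries, since only 2 wild-type libraries reached the filter's level of 0.196 CPM. Over the 30 regulators that reached it in all 3 wild-type libraries, 7 passed (5 higher, 2 lower). Without wild-type replicate 2 the number passing fell from 8 to 4, and without *Scd2*-m/-m replicate 2 to 5.

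Among both survival and death genes some passed as higher and some as lower, and the sides were not tested against each other. Of the 11 survival genes, 3 passed (2 higher, 1 lower), 3 had a positive fold change and the median log2 fold change was -0.06. These count the near-identical *Bcl2a1* copies singly. With the copies summed, 3 of 9 survival genes passed (2 higher, 1 lower) and the median was -0.055. Of the 21 death genes tested, 5 passed (4 higher, 1 lower), 16 had a positive fold change and the median was 0.10. The 4 include *Casp12*, which entered the test through the *Scd2*-m/-m libraries. With a filter of 10 counts in every library, which drops *Casp12* and *Bik*, 4 of 19 death genes passed (3 higher, 1 lower; median 0.079). Over all genes the median was 0.00 and 50.7% of fold changes were positive. Summed as TPM (a share of all transcripts that allows for gene length), the survival genes came to 887, 905 and 894 in wild-type against 959, 1059 and 1060 in *Scd2*-m/-m BMDMs, a rise in the opposite direction to their median. That sum was mostly *Mcl1*: without it the survival genes came to 218, 228 and 229 against 198, 203 and 219. The death genes summed to 699, 698 and 722 TPM against 746, 741 and 713, and these ranges overlapped. Without wild-type replicate 2 only *Birc3* passed among the survival genes, and 3 death genes passed without wild-type replicate 2, *Scd2*-m/-m replicate 2 or *Scd2*-m/-m replicate 3.

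**Figure D1:**
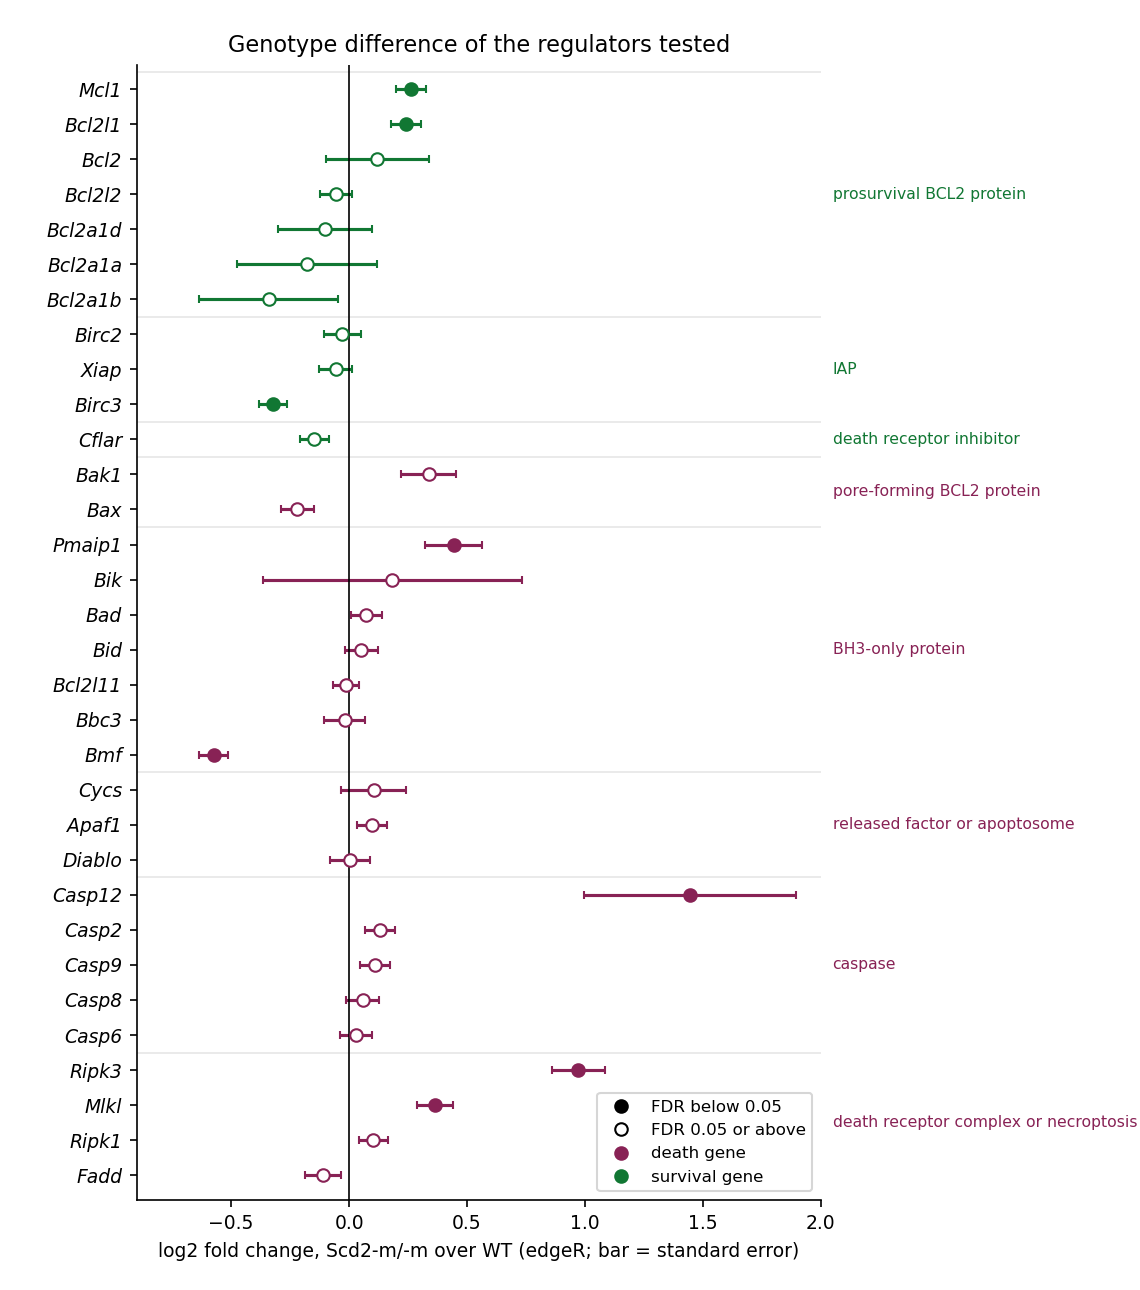
Log2 fold change of each regulator tested, *Scd2*-m/-m over wild-type, with its standard error from edgeR; genes are grouped by role, green marks survival genes, purple marks death genes, and filled points passed an FDR of 0.05. *Ripk3* and *Casp12* lie farthest to the right and *Bmf* farthest to the left, while most other regulators lie near 0.

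The same cultures differed in cell cycle and cell type markers, and these values stand beside every regulator named here. All 30 G2/M and mitosis genes rose (median log2 fold change 1.87; summed level 97.5 to 116 CPM in wild-type against 297 to 337 in *Scd2*-m/-m libraries). Of 15 macrophage markers 8 fell and 2 rose (sums 53753 to 56460 against 39691 to 40232 CPM). The list includes *Lyz2*, the lysozyme M gene itself (log2 fold change -1.33), for which the Cre is named. The part of *Lyz2* in the fall of that sum was not tested. Of 14 monocyte and progenitor markers tested 8 rose and 1 fell (339 to 374 against 406 to 488 CPM). Of 10 neutrophil markers tested 6 rose and 1 fell, while their sum overlapped (187 to 194 against 170 to 203 CPM) and *Stfa1* was at 0. Dendritic cell markers rose in 3 of 11 (310 to 333 against 288 to 337 CPM) and lymphocyte markers in 2 of 5 (81.5 to 163 against 118 to 153 CPM, with *Ncr1* and *Gzma* at 0). For mast cell and basophil markers edgeR called 0 of 4 (1 at an unadjusted p below 0.05; DESeq2 0, limma-voom 0, limma-voom with quality weights 1), with sums of 0.954 to 1.35 against 1.90 to 2.60 CPM and *Mcpt4*, *Tpsb2* and *Cma1* at 0. Erythroid and megakaryocyte markers fell in 1 of 7 (199 to 253 against 179 to 197 CPM, *Car1* at 0), and stromal and endothelial markers rose in 1 and fell in 1 of 8 (14.9 to 18.6 against 17.4 to 19.3 CPM). The part of these shifts in the regulators' differences was not tested, and in these bulk libraries fewer cells of a type and less RNA per cell cannot be told apart.

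Per gene length the regulators spanned a wide range. In wild-type BMDMs *Mcl1* stood first at 670.4 ± 6.1 TPM (SD, n = 3), followed by *Bax* at 196 ± 16, *Birc3* at 98.5 ± 5.2, *Bak1* at 84.2 ± 12 and *Casp8* at 59.6 ± 1.6. *Birc3* and *Bak1* were less than the sum of their SDs apart, as were *Bcl2l11* (47.4 ± 1.6) and *Bbc3* (47.0 ± 2.5), which came next. *Ripk3* stood at 10.3 ± 0.62 TPM in wild-type against 20.6 ± 2.9 in *Scd2*-m/-m BMDMs, the latter near *Casp2* (19.6 ± 0.79). At the foot were *Bcl2* (0.434 ± 0.089 TPM), *Bik* (0.397 ± 0.27), *Casp12* (0.169 ± 0.073) and *Bok* (0.0928 ± 0.030). *Bok*, a BAX-like protein, was the regulator not tested: it had 2, 3 and 4 counts in wild-type against 1, 2 and 2 in *Scd2*-m/-m libraries.

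**Figure D2:**
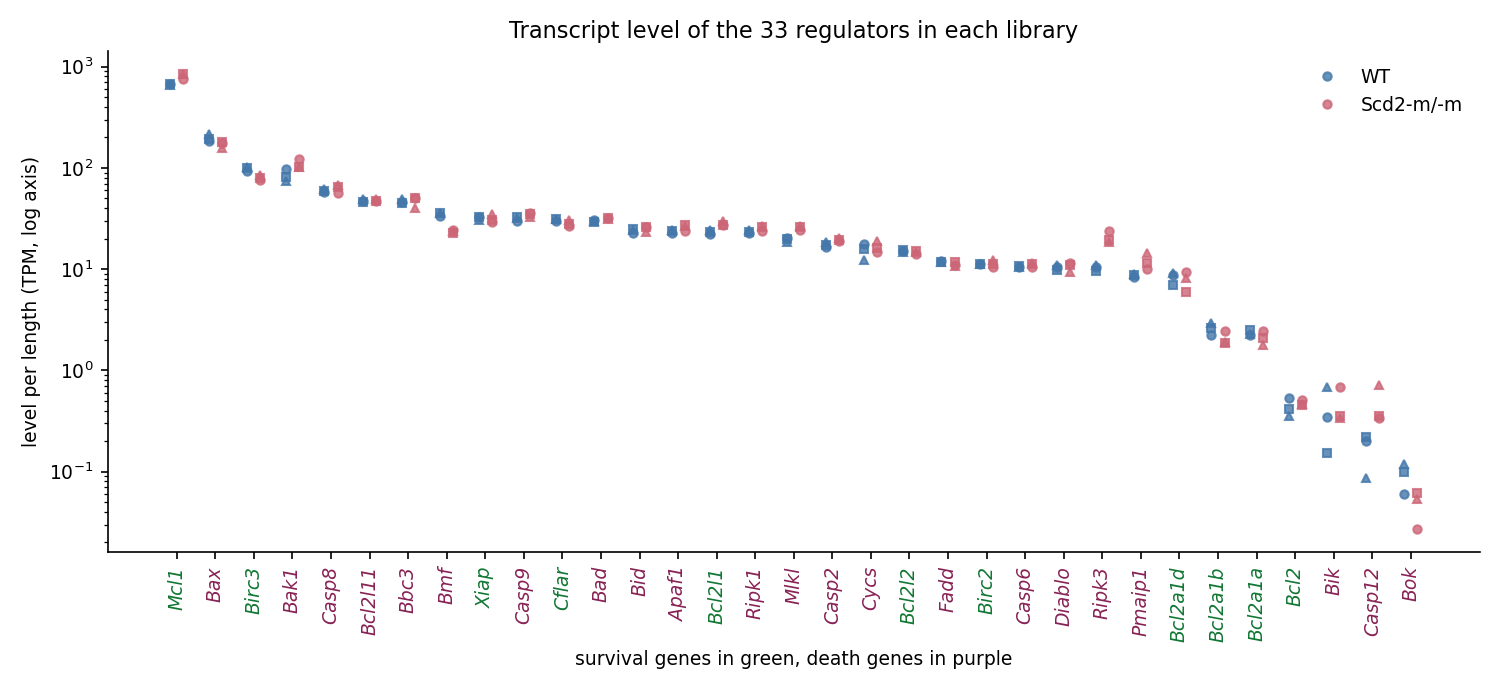
Level of the 33 regulators in each library in TPM on a log axis, ordered by the wild-type mean; each symbol is a library, with colours for the genotypes. *Mcl1* stands above all others, and *Ripk3* and *Casp12* are higher in all *Scd2*-m/-m libraries.

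*Mcl1* encodes the labile prosurvival protein MCL1, on which many myeloid cells depend. It lies at chr3:95658788-95663176 and made up 92.5 to 93.0% of the TPM of the 7 prosurvival BCL2 genes in wild-type and 93.1 to 94.2% in *Scd2*-m/-m libraries. Its level was 836, 827 and 814 CPM in wild-type against 931, 1025 and 1015 CPM in *Scd2*-m/-m BMDMs. All *Scd2*-m/-m libraries were higher (log2 fold change 0.26, SE 0.06, FDR 0.0110). The call was lost without wild-type replicate 2 (FDR 0.0634) or *Scd2*-m/-m replicate 2 (FDR 0.0844). The 250 bases before its RefSeq start (chr3:95658471-95658720, GRCm38.p6, plus strand) are shown because *Mcl1* carries most of the prosurvival transcript, and the capitals mark a match to the NF-kB letters (GGG, any 2 bases, then TTTCC) on the minus strand, 28 bases before the start.
Mcl1: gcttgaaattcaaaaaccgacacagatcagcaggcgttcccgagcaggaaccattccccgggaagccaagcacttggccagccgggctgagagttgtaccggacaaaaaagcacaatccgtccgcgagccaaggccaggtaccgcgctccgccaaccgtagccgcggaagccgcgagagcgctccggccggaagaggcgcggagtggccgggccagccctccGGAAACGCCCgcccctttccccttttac

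*Bcl2l1* (chr2:152780668-152831728), encoding BCL-xL, also rose. It was at 37.7, 38.2 and 40.0 CPM in wild-type against 45.3, 43.9 and 48.0 CPM in *Scd2*-m/-m BMDMs, so that the genotypes did not overlap (log2 fold change 0.24, SE 0.06, FDR 0.0169). Without wild-type replicate 1 the FDR was 0.0524 and without wild-type replicate 2 it was 0.0842. *Bcl2* itself was barely expressed, at 1.77, 1.37 and 1.16 CPM in wild-type against 1.68, 1.47 and 1.51 CPM in *Scd2*-m/-m BMDMs. Its libraries overlapped (log2 fold change 0.12, SE 0.22, FDR 0.764). *Bcl2l2*, encoding BCL-w, overlapped as well, between 22.3 and 24.5 CPM in all libraries (log2 fold change -0.05, SE 0.07, FDR 0.636).

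A1 is an NF-kB-inducible prosurvival protein that the mouse encodes in near-identical copies on chromosome 9. The coding sequences of *Bcl2a1a*, *Bcl2a1b* and *Bcl2a1d* are 516 bases long and 97.9 to 98.8% identical, so reads can be hard to assign among them, and no source used here tells how shared reads were counted. The first 90 bases of the coding sequences (GENCODE M21, GRCm38) are shown to let the copies be compared, with capitals at the 6 positions in this stretch, of 12 in all, where they differ.
Bcl2a1a: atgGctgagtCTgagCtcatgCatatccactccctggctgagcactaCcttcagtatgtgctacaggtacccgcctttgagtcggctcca
Bcl2a1b: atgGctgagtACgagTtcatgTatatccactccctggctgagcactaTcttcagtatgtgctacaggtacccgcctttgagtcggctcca
Bcl2a1d: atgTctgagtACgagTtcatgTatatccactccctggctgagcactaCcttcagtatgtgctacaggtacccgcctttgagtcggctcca

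*Bcl2a1d* held most of the counts, between 1.81 and 2.92 CPM, and *Bcl2a1a* and *Bcl2a1b* were each below 1 CPM in every library. As their split is uncertain, the copies were also summed, which gave 4.11, 3.64 and 4.37 CPM in wild-type against 4.35, 2.94 and 3.56 CPM in *Scd2*-m/-m BMDMs. The genotypes overlapped (log2 fold change -0.16, SE 0.16, FDR 0.558), and none of the copies passed when tested apart in edgeR (FDR 0.478 to 0.784).

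Among the IAPs *Birc3*, encoding cIAP2, fell. The gene (chr9:7848699-7873186) was at 169, 181 and 183 CPM in wild-type against 136, 140.4 and 149 CPM in *Scd2*-m/-m BMDMs. No *Scd2*-m/-m library reached the lowest wild-type library (log2 fold change -0.32, SE 0.06, FDR 0.00201), and the call held without each library in turn. Its neighbour *Birc2*, encoding cIAP1, overlapped between 17.1 and 19.9 CPM (log2 fold change -0.03, SE 0.08, FDR 0.848), and *Xiap*, encoding the caspase inhibitor XIAP, overlapped between 98.0 and 116 CPM (log2 fold change -0.06, SE 0.07, FDR 0.641). *Cflar*, encoding cFLIP, was at 138, 143 and 141 CPM in wild-type against 120.3, 124 and 136 CPM in *Scd2*-m/-m BMDMs. These groups did not overlap, but the difference did not pass (log2 fold change -0.15, SE 0.06, FDR 0.116). It passed without *Scd2*-m/-m replicate 3 (FDR 0.0354), the library nearest to wild type, and in limma-voom with quality weights (FDR 0.00965). The bases before the *Birc3* start (chr9:7873171-7873420, GRCm38.p6, minus strand) follow, because *Birc3* was the survival gene that fell; the capitals mark the ETS/PU.1 letters GAGGAA on the opposite strand.
Birc3: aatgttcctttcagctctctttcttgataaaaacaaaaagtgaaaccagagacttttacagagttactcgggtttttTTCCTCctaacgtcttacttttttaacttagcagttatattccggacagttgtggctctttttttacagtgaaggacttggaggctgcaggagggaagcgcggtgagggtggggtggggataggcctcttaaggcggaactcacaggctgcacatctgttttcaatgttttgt

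The pore formers *Bax* and *Bak1* lay on opposite sides of 0, and neither passed in edgeR. *Bax* was at 105, 108 and 121 CPM in wild-type against 100.2, 99.3 and 87.3 CPM in *Scd2*-m/-m BMDMs. All *Scd2*-m/-m libraries were lower, just short of the threshold (log2 fold change -0.22, SE 0.07, FDR 0.0505), which the gene passed in DESeq2 (FDR 0.0357) and, in edgeR, without wild-type replicate 1 (FDR 0.0322) or *Scd2*-m/-m replicate 1 (FDR 0.0413). *Bak1* was at 85.6, 70.1 and 63.6 CPM in wild-type against 105, 86.5 and 85.8 CPM in *Scd2*-m/-m BMDMs. Here all *Scd2*-m/-m libraries were higher, the closest pair by little (log2 fold change 0.34, SE 0.11, FDR 0.0769), and the gene passed in DESeq2 (FDR 0.0142) and, in edgeR, without wild-type replicate 1 (FDR 0.00203). An opposite-strand gene, *Ggnbp1*, overlaps *Bak1* and had 101 to 147 counts in each library.

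Of the 7 BH3-only genes *Bmf* fell, *Pmaip1* rose and the others did not pass. *Bmf* (chr2:118528757-118549687), whose protein binds prosurvival BCL2 proteins, was at 64.0, 66.8 and 66.9 CPM in wild-type against 45.96, 42.3 and 44.4 CPM in *Scd2*-m/-m BMDMs. The genotypes were far apart compared with the spread within them, *Scd2*-m/-m at 67.1% of the wild-type mean (log2 fold change -0.57, SE 0.06, FDR 2.36e-05). It passed in all 6 fits that left out a library. *Pmaip1*, encoding NOXA, which binds MCL1, was at 8.30, 8.59 and 8.79 CPM in wild-type against 9.86, 11.001 and 14.0 CPM in *Scd2*-m/-m BMDMs. All *Scd2*-m/-m libraries were higher but spread more widely (log2 fold change 0.44, SE 0.12, FDR 0.0224), and the log2 fold change came to 0.28 with *Scd2*-m/-m replicate 3 left out (FDR 0.0901). The call was also lost without wild-type replicate 1 (FDR 0.0514), wild-type replicate 2 (FDR 0.0795) or *Scd2*-m/-m replicate 2 (FDR 0.0568).

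*Bcl2l11*, encoding BIM, and *Bbc3*, encoding PUMA, were the BH3-only genes with the most TPM. *Bcl2l11* stayed between 132 and 142 CPM in all libraries (log2 fold change -0.01, SE 0.06, FDR 0.906), and *Bbc3* between 30.4 and 38.4 CPM (log2 fold change -0.02, SE 0.09, FDR 0.913). *Bid*, which links caspase 8 to mitochondria, and *Bad*, which responds to growth factor signals, differed by 0.05 and 0.07 on the log2 scale (FDR 0.676 and 0.482), *Bad* being slightly higher in every *Scd2*-m/-m library. Both lie across an opposite-strand gene (*Bcl2l13* and *Gpr137*), and no source used here tells whether strand was used in counting. *Bik* had only 4 to 22 counts in any library (log2 fold change 0.18, SE 0.55, FDR 0.861).

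None of the 3 genes for the apoptosome or for factors released from mitochondria passed in edgeR, and their libraries overlapped: *Apaf1* (log2 fold change 0.10, SE 0.06, FDR 0.317), *Cycs*, encoding cytochrome c (0.10, SE 0.14, FDR 0.672), and *Diablo*, encoding the IAP antagonist SMAC (0.00, SE 0.09, FDR 0.981). None of them reached an unadjusted p of 0.05, DESeq2 called 0 and limma-voom called 0. All 5 caspases had positive fold changes, but only *Casp12* passed. *Casp8*, which starts death receptor apoptosis and restrains necroptosis, was at 61.5, 61.3 and 63.6 CPM in wild-type against 58.5, 65.5 and 69.9 CPM in *Scd2*-m/-m BMDMs. Its libraries overlapped (log2 fold change 0.06, SE 0.07, FDR 0.632). *Casp2*, *Casp6* and *Casp9* had log2 fold changes of 0.13, 0.03 and 0.11 (FDR 0.181, 0.823 and 0.254), and *Casp2* was higher in every *Scd2*-m/-m library.

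*Casp12*, a caspase tied to endoplasmic reticulum stress and inflammation in rodents, rose from a very low level. It had 14, 14 and 6 counts in wild-type against 26, 24 and 56 in *Scd2*-m/-m libraries, or 0.282, 0.304 and 0.118 against 0.466, 0.477 and 0.963 CPM. The genotypes did not overlap, though *Scd2*-m/-m replicate 3 stood well above the others (log2 fold change 1.45, SE 0.45, FDR 0.0395). The call rested on few counts: without wild-type replicates 1, 2 and 3 in turn the FDR was 0.0542, 0.0733 and 0.131, without *Scd2*-m/-m replicate 2 it was 0.0672, without *Scd2*-m/-m replicate 3 it was 0.213, and limma-voom gave 0.0568.

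The necroptosis genes *Ripk3* and *Mlkl* rose together. *Ripk3* (chr14:55784995-55788865), encoding the kinase that triggers necroptosis, was at 8.74, 7.89 and 8.91 CPM in wild-type against 19.7, 15.6 and 14.9 CPM in *Scd2*-m/-m BMDMs. Every *Scd2*-m/-m library was well above every wild-type library, at 196% of the wild-type mean (log2 fold change 0.97, SE 0.11, FDR 4.52e-05). *Mlkl* (chr8:111311797-111338177), encoding the membrane-breaking pseudokinase that RIPK3 phosphorylates, was at 17.0, 16.4 and 15.3 CPM in wild-type against 20.03, 21.01 and 21.7 CPM in *Scd2*-m/-m BMDMs. The genotypes did not overlap and the rise was smaller (log2 fold change 0.36, SE 0.08, FDR 0.00433). Both calls held without each library in turn and in all 10 other fits with another scaling, tool, filter or block.

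The upstream kinase and adaptor differed less. *Ripk1* was at 69.4, 69.3 and 72.3 CPM in wild-type against 71.2, 75.8 and 79.4 CPM in *Scd2*-m/-m BMDMs, with overlap (log2 fold change 0.10, SE 0.06, FDR 0.292). It shares its locus with *Serpinb6a* on the opposite strand, which had 16880 to 20758 counts in wild-type against 26426 to 30296 in *Scd2*-m/-m libraries, and the part of those reads in the *Ripk1* counts was not tested. *Fadd*, the adaptor that joins death receptors to caspase 8, was at 17.0, 16.5 and 16.4 CPM against 15.4, 16.2 and 14.7 CPM; its *Scd2*-m/-m libraries were lower but the difference did not pass (log2 fold change -0.11, SE 0.08, FDR 0.367). As TPM, *Fadd*, *Ripk1*, *Ripk3* and *Mlkl* summed to 64.7 to 65.4 in wild-type against 82.7 to 83.2 in *Scd2*-m/-m libraries.

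The sequences before the starts of *Ripk3* (chr14:55788858-55789107) and *Mlkl* (chr8:111338206-111338455; both GRCm38.p6, minus strand) are shown because these genes rose together. The *Ripk3* sequence holds an E-box (CACGTG, in capitals), 61 bases before the start, and the *Mlkl* sequence none of the 10 motifs searched.
Ripk3: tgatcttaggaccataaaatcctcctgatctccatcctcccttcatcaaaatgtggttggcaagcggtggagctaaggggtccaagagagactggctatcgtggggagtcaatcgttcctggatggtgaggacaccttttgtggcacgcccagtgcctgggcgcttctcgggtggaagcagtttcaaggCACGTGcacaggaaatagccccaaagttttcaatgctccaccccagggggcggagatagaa
Mlkl: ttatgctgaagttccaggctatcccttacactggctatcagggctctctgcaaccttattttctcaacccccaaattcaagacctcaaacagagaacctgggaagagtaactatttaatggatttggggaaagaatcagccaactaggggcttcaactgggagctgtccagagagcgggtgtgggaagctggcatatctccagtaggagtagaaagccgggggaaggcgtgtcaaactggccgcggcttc

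RefSeq promoters (250 bases before to 50 after a start, GRCm38.p6) were found for 31 of the 33 regulators, 43 promoters in all, and were searched on both strands for 10 motifs, whose matches may overlap each other. The NF-kB letters were in 3 of the 43 (*Bcl2l1*, *Mcl1*, *Bbc3*) and in 1.63% of all 32851 promoters. GAGGAA was in 15 of the 43 and 28.3% of all, CACGTG in 3 (*Bax*, *Bbc3*, *Ripk3*) and 7.15%, the AP-1 letters TGANTCA in 3 and 7.81%, and the ATF4-CHOP letters TGATGNAA in 3 and 3.97%. The AP-1 and ATF4-CHOP matches were all in the *Bcl2a1* copies, which share their sequence. The letters TTTNGCGC (E2F) were in 1 (*Bcl2l1*) and 1.38%, the ISRE letters (GAAA, any 2 bases, GAAA) in 2 and 3.44%, TGTTTAC (FOXO) in 2 and 3.65%, TGACGTCA (CRE) in 2 and 1.79%, and the p53 letters (CATG, any 6 bases, CATG) in 0 and 0.712%. These matches describe the letters only.

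**Figure D3:**
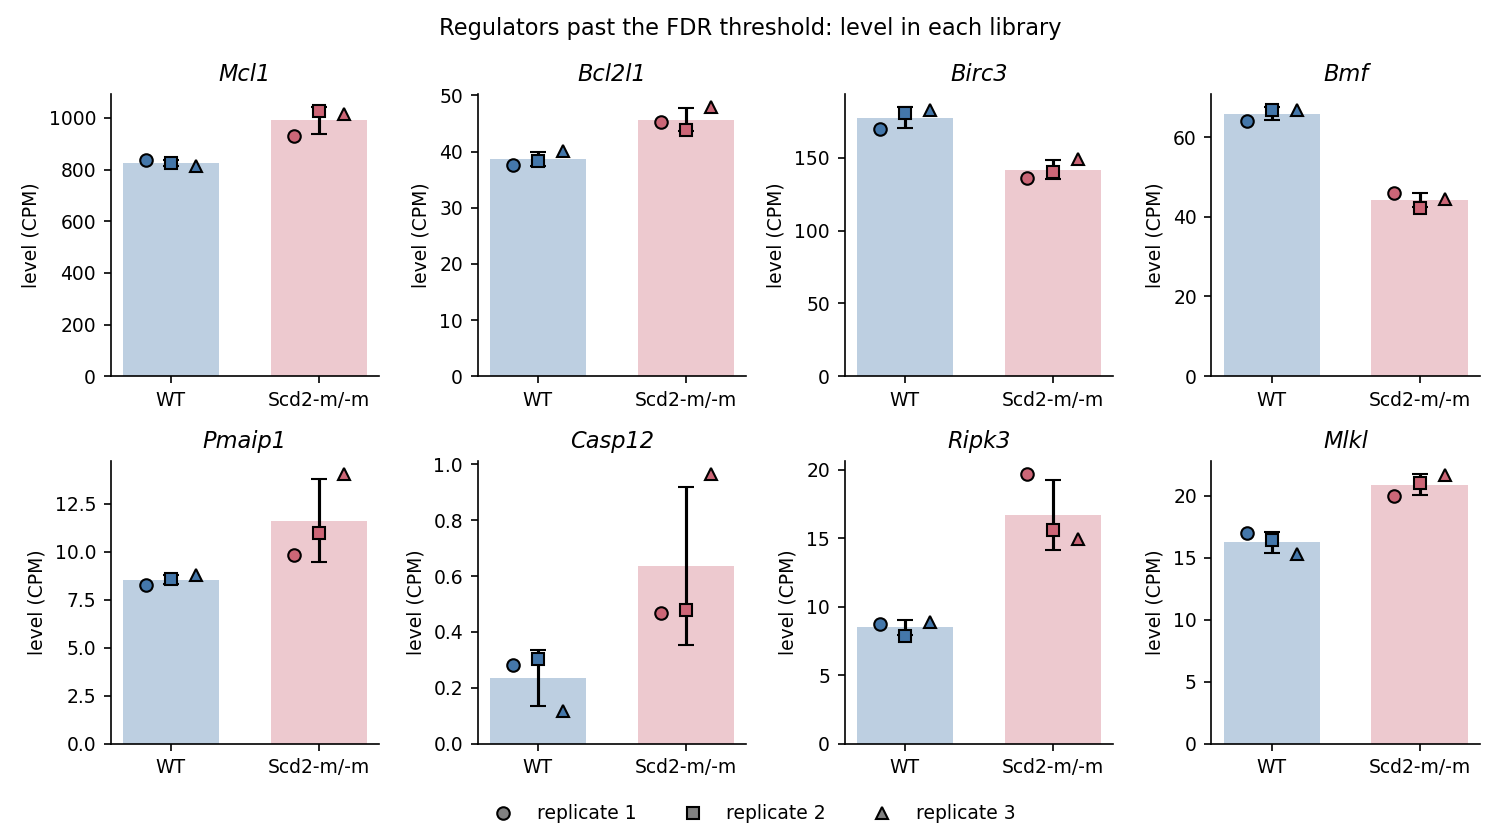
Level in CPM of the 8 regulators past the FDR threshold, with 1 panel for each gene, the axis starting at 0 and 1 symbol for each library. In every panel the 3 *Scd2*-m/-m libraries lie on the same side of the 3 wild-type libraries, above for 6 genes and below for *Birc3* and *Bmf*.

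Binding partners were also compared within each library as a ratio of counts, for 10 pairs that were picked after the single genes had been seen, so the ratios describe the data. With 3 libraries against 3 the smallest two-sided p of an exact permutation test is 0.1, so none can pass 0.05. The ratio of *Bcl2l1* to *Bax* was 0.348 ± 0.014 (SD, n = 3) in wild-type against 0.481 ± 0.059 in *Scd2*-m/-m libraries, with no overlap. *Mcl1* to *Bmf* was 12.5 ± 0.47 against 22.4 ± 2.0, again apart in all libraries. *Mcl1* to *Bak1* (11.45 ± 1.5 against 10.9 ± 1.7) and *Mcl1* to *Pmaip1* (96.5 ± 4.1 against 86.6 ± 12.4) overlapped, as did *Xiap* to *Casp9* (1.86 ± 0.12 against 1.66 ± 0.23). Thus the *Mcl1* ratio was separated between genotypes for *Bmf* but overlapped for *Bak1* and *Pmaip1*; the difference between these ratios was not tested.

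On the death receptor side *Cflar* to *Casp8* was 2.27 ± 0.063 in wild-type against 1.97 ± 0.082 in *Scd2*-m/-m libraries. *Ripk3* to *Casp8* was 0.137 ± 0.0073 against 0.262 ± 0.065, and *Mlkl* to *Ripk3* was 1.91 ± 0.18 against 1.27 ± 0.23. *Bak1* to *Bax* was 0.663 ± 0.14 against 0.966 ± 0.088, and *Birc3* to *Birc2* was 9.52 ± 0.51 against 7.77 ± 0.25. None of these 5 ratios overlapped between genotypes. The pairs that did not overlap, each at the smallest exact permutation p of 0.1 (0.143 adjusted over the 10 pairs by Benjamini-Hochberg), largely restate the single genes they hold, and other pairs of genes were not compared.

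**Figure D4:**
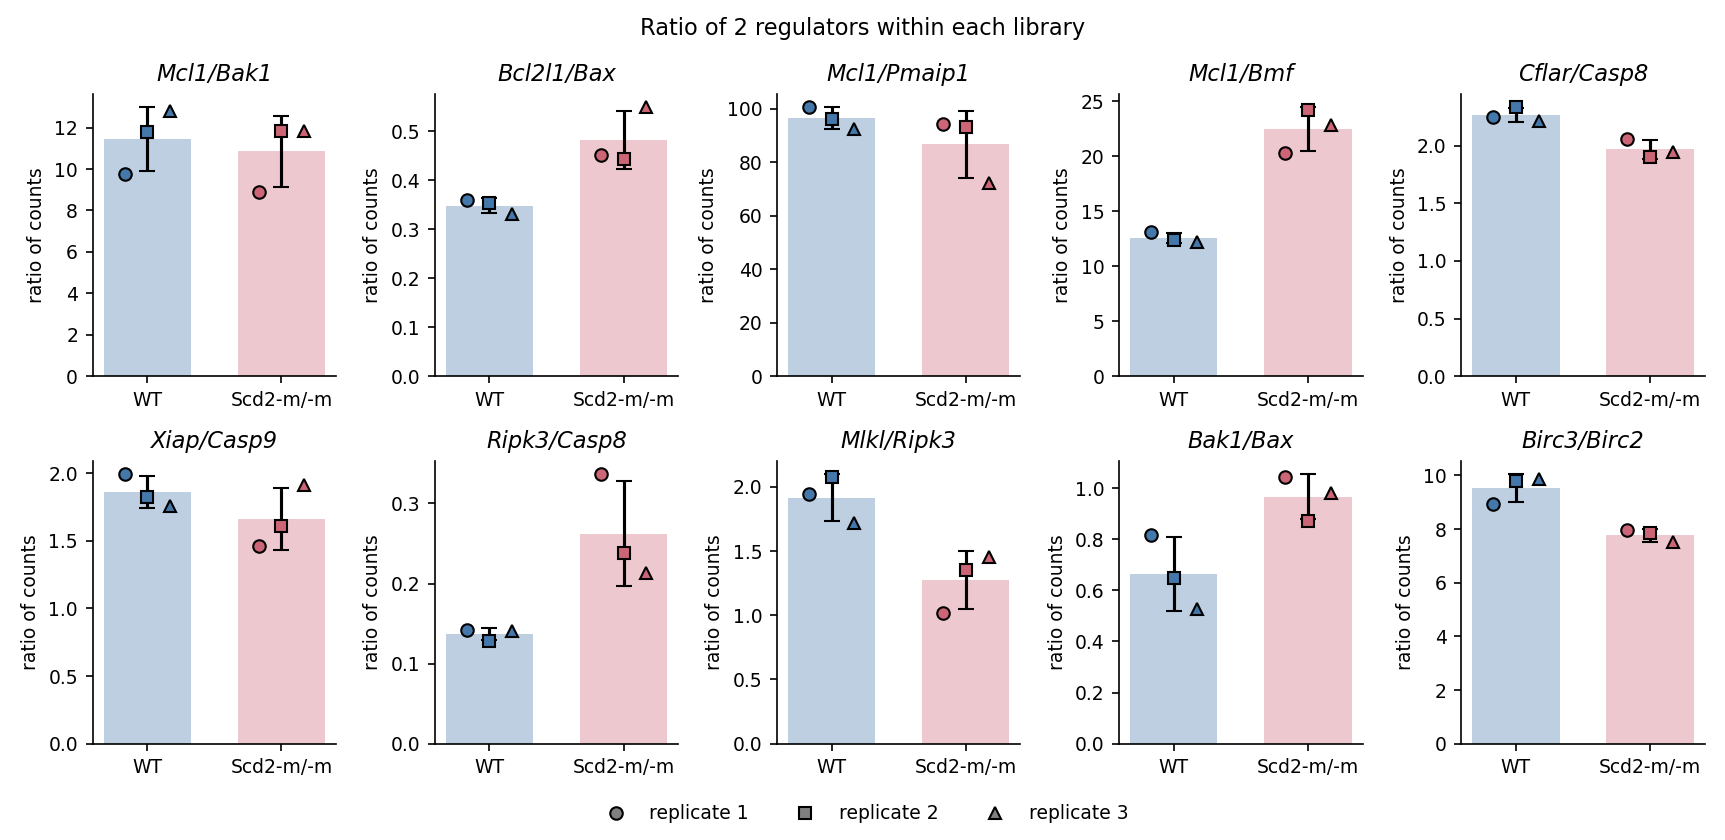
Ratio of counts of 2 regulators within each library, with 1 panel for each of 10 pairs, the axis starting at 0 and 1 symbol for each library. *Ripk3*/*Casp8* and *Mcl1*/*Bmf* are higher and *Mlkl*/*Ripk3* is lower in all *Scd2*-m/-m libraries, while *Mcl1*/*Bak1* overlaps.

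Other genes of the same pathways were taken from lists that, like the regulators, were chosen with earlier results of these data known. Among 17 other BCL2 family and mitochondrial death genes edgeR called 0 (3 at an unadjusted p below 0.05; DESeq2 0, limma-voom 0, limma-voom with quality weights 2), with a median log2 fold change of 0.02. *Birc5*, encoding survivin, which works in mitosis and is among the G2/M genes above, rose with a log2 fold change of 2.68 (SE 0.17, FDR 2.91e-07).

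Of 7 death receptor and ligand genes tested, *Tnfsf12*, encoding the ligand TWEAK, rose (log2 fold change 0.36, SE 0.07, FDR 0.00343) and *Tnfrsf1a*, encoding TNF receptor 1, fell (-0.23, SE 0.06, FDR 0.0123; 0.101 without *Scd2*-m/-m replicate 2 and 0.0680 without wild-type replicate 2). *Fas* had a log2 fold change of 0.17 (SE 0.10, FDR 0.268), *Tnf* of -0.43 (SE 0.26, FDR 0.349), and *Fasl* had 0 counts. By qPCR of unstimulated macrophages the study reported *Tnf* and *Fasl* as higher and *Fas* as lower in *Scd2*-m/-m cells. The signs for *Fas* and *Tnf* were opposite here, though neither passed, and the reason was not tested. Of 27 adaptors and necroptosis regulators 4 rose and 2 fell (median 0.02). *Zbp1*, the nucleic acid sensor that can activate RIPK3, was at 38.3, 36.8 and 45.9 CPM in wild-type against 56.0, 57.5 and 63.2 CPM in *Scd2*-m/-m BMDMs. Its libraries did not overlap (log2 fold change 0.55, SE 0.08, FDR 0.000490), so that *Zbp1*, *Ripk3* and *Mlkl* each rose. *Traf2*, which recruits cIAPs to TNF receptor 1, fell (log2 fold change -0.51, SE 0.08, FDR 0.000480), and *Tank*, a TRAF-binding protein, rose (0.29, SE 0.07, FDR 0.0105; 0.0634 without wild-type replicate 2).

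Of 28 p53 targets tested, of which 4 are regulators counted above, 4 rose and 5 fell (median 0.04). The 3 with the smallest p were *Plk2*, a polo-like kinase (log2 fold change 0.77, SE 0.07, FDR 1.07e-05), *Aen*, an apoptosis-enhancing nuclease (-0.51, SE 0.09, FDR 0.00161), and *Btg2*, an antiproliferative gene (-0.29, SE 0.06, FDR 0.00596; 0.0516 without *Scd2*-m/-m replicate 2). Of 20 genes listed as NF-kB survival targets, 2 rose and 9 fell (median -0.19). Without the 8 regulators among them, 1 rose and 8 fell of 12 (median -0.36). These 12 include NF-kB subunits and inhibitors, so their fall is not one of survival genes as such. Over all genes tested 9.65% passed as higher and 7.84% as lower. *Nfkb1* and *Relb*, which encode NF-kB subunits, fell (log2 fold change -0.38 for each, SE 0.06 for each, FDR 0.000386 and 0.000586), as did *Birc3* and *Traf2*, while *Bcl2l1* of the same list rose.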

How the data were processed

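RNA of 6 BMDM cultures was poly(A)-selected and sequenced on an Illumina NovaSeq instrument. Per the study's methods, reads were aligned with STAR to an Ensembl mouse assembly; the counting tool, its strand setting and its rule for shared reads are not given in those sources. The deposited values are the authors' raw gene counts, 1 column a library, not normalised. A second deposited table holds the authors' own differential expression (fold changes and p-values) and was not used. The count table had 40757 entries, of which 276 repeated a gene identifier and were dropped.

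Genes were filtered with filterByExpr (10 counts at the median library size, 0.196 CPM, in 3 libraries). The 3 wild-type and 3 *Scd2*-m/-m libraries were compared with edgeR 4.0.16 in R 4.3.3 (TMM factors, 0.979 to 1.02; robust quasi-likelihood F test, no covariate), with FDR by Benjamini-Hochberg over all 14778 genes; standard errors were derived from the F statistic. CPM used TMM-scaled totals, and TPM used GENCODE M21 exon lengths (GRCm38). Totals of 46285176 to 57629638 counts leave counting error small except for the least expressed regulators, among them *Bik*, *Bok*, *Casp12*, *Bcl2a1a* and *Bcl2a1b*. Replicates differed by more than counting noise (chi-square per gene 10.4 to 31.9), so none was taken for a duplicate of another library; this does not show that they came from separate cultures or mice. The study states no pairing of replicate numbers between genotypes. Correlations of same-numbered deviations were 0.053, -0.020 and 0.040, and those of differently numbered deviations ran from -0.074 to 0.041. Such values cannot decide whether libraries were paired.

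Alternatives were RLE and upper-quartile factors, DESeq2 1.42.0, limma-voom 3.58.1 with and without quality weights, other filters, halved counts, summed *Bcl2a1* copies, a replicate block, and each library left out. The 33 regulators, their split by role and the lists were chosen with earlier results of these data known. Called regulators, *Bcl2*, *Bax* and *Casp8* were given with every library; from other lists, up to 3 called genes of smallest p were named, with *Fas* and *Tnf*; some genes that this rule names, and the list that holds them, are not reported here. *Cflar*, *Bak1*, *Ripk1* and *Fadd* were given in full, and the ratio pairs were picked, after their values were seen.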

Additional observations from a re-analysis of the deposited data

How the results depend on the processing

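The count of regulators called (8) was 7 to 10 with other factors, tools, filters, halved counts or summed *Bcl2a1* copies, and 4 to 9 with each library left out; the lowest, 4 and 5, came without wild-type replicate 2 and *Scd2*-m/-m replicate 2, fits that also called fewer genes in all (1490 and 1440 against 2585). limma-voom with quality weights called 4507 genes in all. At an FDR below 0.01, 4 regulators passed (1 survival, 3 death, of 1331 genes in all). At an FDR below 0.05 with an absolute log2 fold change above 2, edgeR called 0 survival and 0 death genes. Survival genes called (3) ranged from 1 to 4 and death genes (5) from 3 to 6 with a library left out. The survival median (-0.06) was -0.092 with quality weights and ranged from -0.093 to -0.030 with a library left out; the death median (0.098) ranged from 0.072 to 0.089. No source used here says whether same-numbered libraries were paired. With the replicate block 9 regulators were called, of 2974 genes in all, *Bax* (FDR 0.0490) and *Bak1* (FDR 8.27e-04) gained and *Casp12* (FDR 0.0628) lost. The block called 3 survival and 6 death genes, with medians of -0.059 and 0.097. Not every library correlated best with its own number. The causes of these shifts were not tested.

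No regulator that was called changed direction. Uncalled fold changes near 0 did: *Diablo* was -0.00047 with RLE factors, -0.00036 in DESeq2 and -0.0020 in limma-voom, and *Bbc3* was 0.056 with quality weights. With each library left out the log2 fold change ranged from -0.014 to 0.30 for *Bcl2*, -0.26 to 0.065 for *Bcl2a1d*, -0.093 to 0.018 for *Birc2*, -0.040 to 0.0091 for *Bcl2l11*, -0.24 to 0.83 for *Bik*, -0.080 to 0.082 for *Bbc3*, -0.040 to 0.24 for *Cycs*, -0.069 to 0.087 for *Diablo* and -0.0027 to 0.12 for *Casp8*. *Bax* also passed with RLE factors (FDR 0.0463), quality weights (0.0307) and no filter (0.0149), and *Bak1* with limma-voom (0.0433), quality weights (0.00593) and no filter (2.67e-05). *Bik* had no value with halved counts or stricter filters, *Casp12* none with stricter filters, and *Bcl2a1a* and *Bcl2a1b* none under a minimum of 1 CPM; low counts limit what a difference in these genes could show.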
